A study of Mus musculus with 6 samples.

Results

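Mechanosensitive ion channels open when a membrane is stretched or a cell is deformed, and let calcium and other cations into the cell. Tendon cells live under load along collagen fibres, and channels of this kind are known to raise calcium in them. The genes described are the 9 named as *Piezo1*, *Piezo2*, *Trpv4*, *Trpv2*, *Trpc1*, *Pkd1*, *Pkd2*, *Tmem63a* and *Tmem63b*, chosen by symbol from the 44788 symbols of the count table. All 9 were present, and all 9 were among the 14550 genes that passed the filter on low counts. Bulk RNA sequencing, which reads the RNA of a whole tissue with its cell types mixed, was carried out on tail tendons of C57BL/6 mice aged 3 weeks per the labels. A set of 3 libraries came from wild-type (WT) mice and 3 from *Mkx*-/- mice, a knockout of the tendon transcription factor Mohawk used as a model of bone formation in tendon. No Cre driver or conditional allele is named in the labels, and they do not say whether each library was 1 mouse or a pool. In bulk tissue, fewer cells of a type and less RNA per cell cannot be told apart.

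The libraries held 10835070 to 14160301 counts. *Mkx* itself had 1381 to 1825 counts in WT and 491 to 620 in *Mkx*-/- libraries, a log2 fold change of -1.60, and which stretch of the gene is deleted is not given in the labels. *Ddx3y*, a Y-linked gene, was counted 301 times in WT replicate 3 and 0 times in each of 5 libraries, so 1 WT library came from a male and 5 libraries from females. Levels are given below as CPM, counts scaled to a common library size after TMM normalization, which assumes that most genes keep the same level. The tendon genes *Fmod*, *Tnmd* and *Col1a2* were abundant in all 6 libraries, although *Col1a2* was lower in every *Mkx*-/- library.

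The channel genes fall into a few families. *Piezo1* and *Piezo2* encode large channels opened directly by membrane tension, the latter best known in sensory neurons and Merkel cells for touch. *Pkd1* and *Pkd2* encode the polycystins, a receptor-like protein and a cation channel that join in the primary cilium and whose loss causes polycystic kidney disease. *Tmem63a* and *Tmem63b* encode high-threshold stretch-activated channels related to the OSCA channels of plants. *Trpv4*, *Trpv2* and *Trpc1* encode TRP cation channels. TRPV4 responds to swelling and is known for its role in cartilage, TRPV2 is known in immune and muscle cells, and TRPC1 takes part in store-operated calcium entry.

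None of the 9 channel genes passed an adjusted p of 0.05 in edgeR's quasi-likelihood test across all genes. Of all tested genes, 3.18% passed it as higher in *Mkx*-/- tendons and 2.26% as lower. An unadjusted p under 0.05 was found for 3 of the 9, against 22.6% of all tested genes. These were *Piezo1*, which was lower in *Mkx*-/- tendons, and *Pkd1* and *Tmem63b*, which were higher. In the same 3 genes every *Mkx*-/- library lay on one side of every WT library, a pattern held by 28.2% of all tested genes. With 3 of 9 genes in each case, these counts were close to the background. With DESeq2, 1 of the 9 passed the adjusted threshold, *Piezo1*, against 8.18% of the genes that tool tested. The median log2 fold change was 0.047 over the 9 genes and -0.0037 over all tested genes, and 5 of the 9 were higher and 4 lower.

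The sequences before the start sites of these 3 genes are shown first, because these are the members whose groups did not overlap. Each is the 250 bases before the RefSeq start in GRCm38.p6, 5′ to 3′ on the gene's strand. Capitals mark the GC box GGGCGG or its reverse complement CCGCCC, and the TATA box TATAAA, both searched on both strands.
*Piezo1*, chr8:122551330-122551579, minus strand: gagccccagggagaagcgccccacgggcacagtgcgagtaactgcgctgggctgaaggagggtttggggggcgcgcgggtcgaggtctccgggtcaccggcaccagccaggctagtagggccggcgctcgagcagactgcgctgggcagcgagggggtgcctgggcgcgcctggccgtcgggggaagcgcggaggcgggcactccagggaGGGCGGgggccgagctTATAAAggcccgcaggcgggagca
*Pkd1*, chr17:24549700-24549949, plus strand: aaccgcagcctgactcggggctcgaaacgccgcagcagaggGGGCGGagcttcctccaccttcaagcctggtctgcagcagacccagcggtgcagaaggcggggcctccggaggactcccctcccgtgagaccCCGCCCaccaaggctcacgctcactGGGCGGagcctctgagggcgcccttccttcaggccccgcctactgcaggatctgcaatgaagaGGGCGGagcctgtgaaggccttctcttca
*Tmem63b*, chr17:45686219-45686468, minus strand: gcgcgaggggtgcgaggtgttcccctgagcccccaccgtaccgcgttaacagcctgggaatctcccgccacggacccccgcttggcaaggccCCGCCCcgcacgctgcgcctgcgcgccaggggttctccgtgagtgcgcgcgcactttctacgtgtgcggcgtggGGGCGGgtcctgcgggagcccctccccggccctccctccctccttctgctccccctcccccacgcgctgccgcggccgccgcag

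The *Piezo1* stretch held 1 GC box and 1 TATA box, which began 24 bases before the start. *Pkd1* held 4 GC boxes and *Tmem63b* held 2, and neither held the TATA letters. Of 32851 stretches of the same length, 32.7% held at least 1 GC box and 12.4% a TATA box. The stretches held 26, 16 and 31 CG dinucleotides in *Piezo1*, *Pkd1* and *Tmem63b*, against a median of 6 over all stretches. These traits are not particular to the 3 genes. Among members whose groups overlapped, *Tmem63a*, *Trpv4* and *Trpc1* held 23, 22 and 17 CG dinucleotides and 1, 2 and 3 GC boxes. *Pkd2* held 4 CG dinucleotides and the *Trpv2* stretches 2 to 5, with 0 GC boxes. RefSeq promoters were matched for 8 of the 9 members, all but *Piezo2*. A match of letters is a description and shows no bound factor.

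*Piezo1* had 198, 247 and 233 CPM in the WT libraries and 159, 122 and 172 CPM in the *Mkx*-/- libraries. The highest *Mkx*-/- library lay below the lowest WT library, and *Mkx*-/- replicate 2 was the lowest of all. Means with SD over 3 libraries were 226 ± 25.3 CPM for WT and 151 ± 26.2 CPM for *Mkx*-/- tendons. The fitted fold was 0.670, and the log2 fold change was -0.58 (standard error 0.16, 95% interval -0.95 to -0.20). EdgeR gave it an adjusted p of 0.0805 and DESeq2, which tested 16156 genes, one of 0.0169. Without WT replicate 1 it also passed in edgeR, with an adjusted p of 0.0468, and in the other 5 leave-one-out fits it did not. It passed too with a filter of 1 count in any library, at an adjusted p of 0.0434. The raw counts of *Piezo1* were 1735 to 2908 per library.

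*Piezo2* was far less abundant, with 12.2, 7.85 and 11.5 CPM in WT and 11.2, 12.5 and 13.7 CPM in *Mkx*-/- libraries. The groups overlapped, and WT replicate 2 stood lowest. The log2 fold change was 0.24 (standard error 0.19, 95% interval -0.20 to 0.68; adjusted p = 0.504 by edgeR). This interval leaves room for a fold between 0.873 and 1.60. Without WT replicate 2 the log2 fold change was 0.060.

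*Pkd1*, the gene with most exonic bases of the 9, measured 411, 461 and 416 CPM across WT libraries, against 626, 536 and 514 CPM across *Mkx*-/- libraries. All 3 *Mkx*-/- libraries were above all 3 WT libraries, with *Mkx*-/- replicate 1 the highest. The fitted fold was 1.30, and its log2 fold change was 0.38 (standard error 0.14, 95% interval 0.068 to 0.69), and edgeR gave an adjusted p of 0.144 against 0.0917 by DESeq2. The log2 fold change was 0.27 without *Mkx*-/- replicate 1. *Pkd2* measured 341, 294 and 339 CPM across WT libraries, against 306, 276 and 251 CPM across *Mkx*-/- libraries. Its groups overlapped through WT replicate 2 alone, and its log2 fold change was -0.23 (standard error 0.13, 95% interval -0.53 to 0.081; adjusted p = 0.366 by edgeR). The other polycystin genes were scarce. Of the 8 listed, only *Pkd1l2* had enough counts to test, at 1.02 to 2.18 CPM over the 6 libraries and with a log2 fold change of 0.48 (adjusted p = 0.429 by edgeR), and the other 7 had at most 3 counts in any library.

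*Tmem63b* measured 32.2, 39.4 and 40.5 CPM across WT libraries, against 45.2, 50.1 and 57.2 CPM across *Mkx*-/- libraries. The groups did not overlap. The fitted fold was 1.36, and its log2 fold change was 0.45 (standard error 0.14, 95% interval 0.12 to 0.77), and edgeR gave an adjusted p of 0.110 against 0.107 by DESeq2. *Tmem63a* measured 90.0, 70.8 and 63.4 CPM across WT libraries, against 92.0, 97.2 and 80.6 CPM across *Mkx*-/- libraries. WT replicate 1 lay among the *Mkx*-/- libraries and the other WT libraries below them. Its log2 fold change was 0.27 (standard error 0.16, 95% interval -0.091 to 0.63; adjusted p = 0.360 by edgeR), and 0.42 without WT replicate 1. *Tmem63c*, the remaining member of that family, had 0 to 4 counts per library and was not tested.

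The TRP channel genes were low and overlapped between genotypes. *Trpv4* measured 10.95, 8.74 and 7.05 CPM across WT libraries, against 7.33, 6.67 and 9.20 CPM across *Mkx*-/- libraries, and its log2 fold change was -0.21 (95% interval -0.69 to 0.28; adjusted p = 0.622 by edgeR). *Trpv2* measured 2.28, 3.04 and 2.96 CPM across WT libraries, against 1.74, 2.53 and 2.22 CPM across *Mkx*-/- libraries, and its log2 fold change was -0.34 (95% interval -0.95 to 0.27; adjusted p = 0.499 by edgeR). It rested on 19 to 37 counts per library, and 19 counts have an exact 95% Poisson interval of 11.4 to 29.7 for counting error only. *Trpc1* measured 5.91, 6.58 and 4.89 CPM across WT libraries, against 6.96, 5.83 and 5.15 CPM across *Mkx*-/- libraries, and its log2 fold change was 0.047 (95% interval -0.42 to 0.51; adjusted p = 0.923 by edgeR). For these 3 genes the intervals hold both losses and gains.

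**Figure D1:**
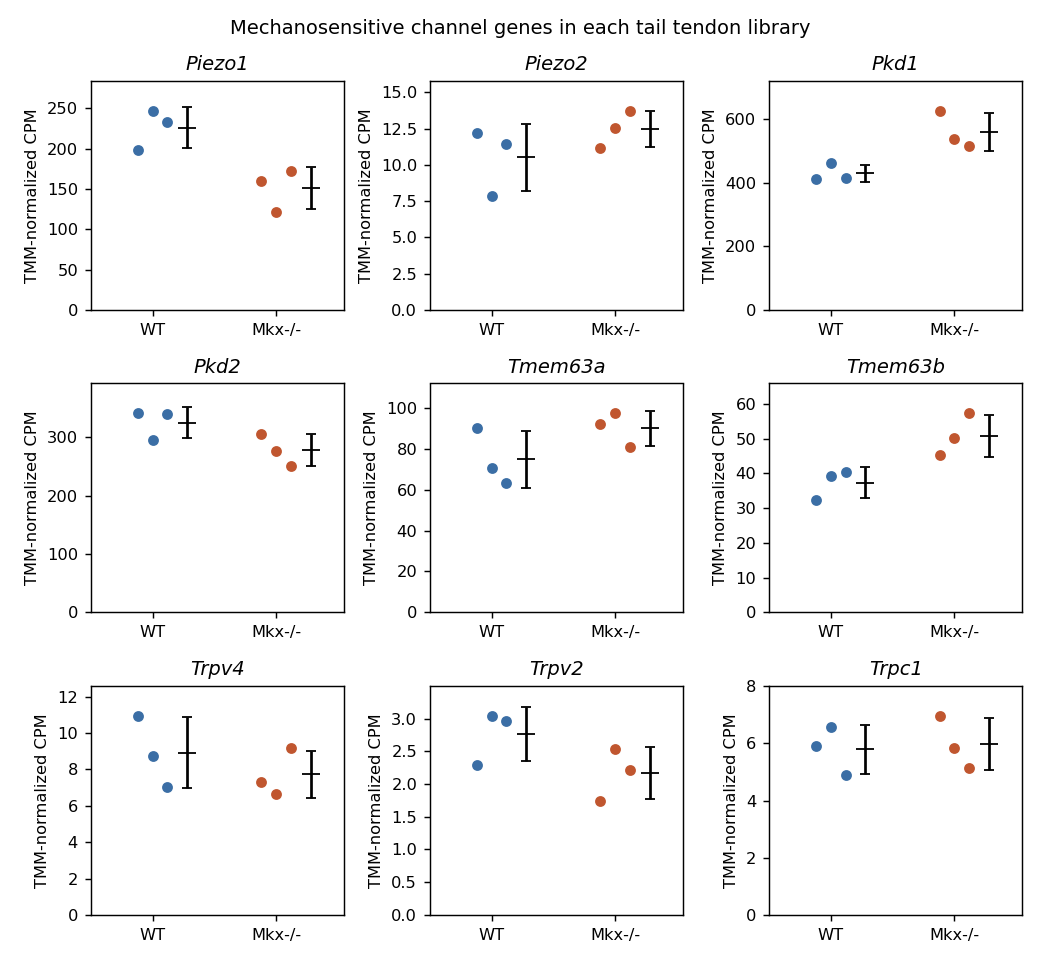
TMM-normalized CPM of the 9 channel genes in each library, 1 panel a gene, with WT on the left and Mkx-/- on the right. Points are libraries, and bars give the mean and SD of 3 libraries. The groups do not overlap in Piezo1, where Mkx-/- libraries are lower, and in Pkd1 and Tmem63b, where they are higher. Of all tested genes, 28.2% have groups that do not overlap.

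How the libraries are scaled bears on each of these values. *Mkx*-/- libraries had TMM factors of 1.01 to 1.14 and WT libraries of 0.865 to 1.01. With library size alone, the median log2 fold change of all tested genes moved by 0.25, and the genes past an adjusted p of 0.05 went from 463 higher and 329 lower to 1358 higher and 197 lower. Under that scaling *Piezo1* had a log2 fold change of -0.32 (adjusted p = 0.218 by edgeR). *Pkd1* had 0.63 and *Tmem63b* 0.71, and both passed the threshold (adjusted p = 0.0197 and 0.0298 by edgeR). *Trpv4* and *Pkd2*, both below 0 with TMM, stood at 0.038 and 0.017. These moves are those of the scaling itself, which raised the median gene by about as much. With the male library, WT replicate 3, left out under TMM scaling, the log2 fold changes were -0.57 for *Piezo1*, 0.34 for *Pkd1* and 0.49 for *Tmem63b*, and none of the 3 passed in edgeR. *Trpc1* changed sign to -0.078 there.

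**Figure D2:**
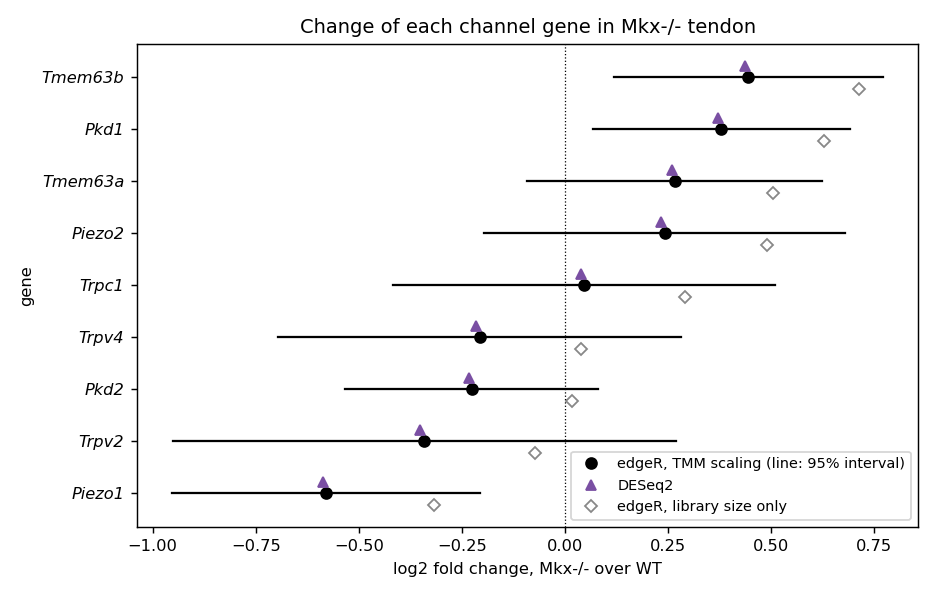
Log2 fold change of each channel gene, Mkx-/- over WT, on the horizontal axis, with genes ordered by the edgeR value. Circles with lines are edgeR with TMM scaling and its 95% interval, triangles are DESeq2, and open diamonds are edgeR with library size only. The intervals of Piezo1, Pkd1 and Tmem63b do not cross 0, and the diamonds all lie to the right of the circles. The intervals are not adjusted for the number of genes tested, and 22.6% of all tested genes had an unadjusted p under 0.05. No channel gene passed an adjusted p of 0.05 in edgeR with TMM scaling.

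Ratios of counts within a library do not depend on the scaling between libraries. The ratio of *Pkd1* to *Pkd2* counts was 1.21, 1.57 and 1.22 in WT and 2.04, 1.94 and 2.05 in *Mkx*-/- libraries. The *Mkx*-/- libraries lay close together and above every WT library. The ratio of *Piezo1* to *Pkd1* counts was 0.481, 0.535 and 0.560 in WT and 0.255, 0.227 and 0.335 in *Mkx*-/- libraries. Its lack of overlap was fixed in advance, since *Piezo1* was lower and *Pkd1* higher in every *Mkx*-/- library. The ratio of *Piezo1* to *Piezo2* counts was 16.2, 31.4 and 20.3 in WT and 14.3, 9.75 and 12.6 in *Mkx*-/- libraries, where the lowest WT and the highest *Mkx*-/- library were close. The separations of *Pkd1* to *Pkd2* and of *Piezo1* to *Piezo2* were likewise fixed by the CPM ranges of these genes given above. They add no support to the changes of the single genes. The ratios of *Tmem63a* to *Tmem63b* and of *Trpv4* to *Trpv2* overlapped between the genotypes. All 5 ratios were chosen after the values were seen and were not tested, and the share of all gene pairs that separate was not computed.

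**Figure D3:**
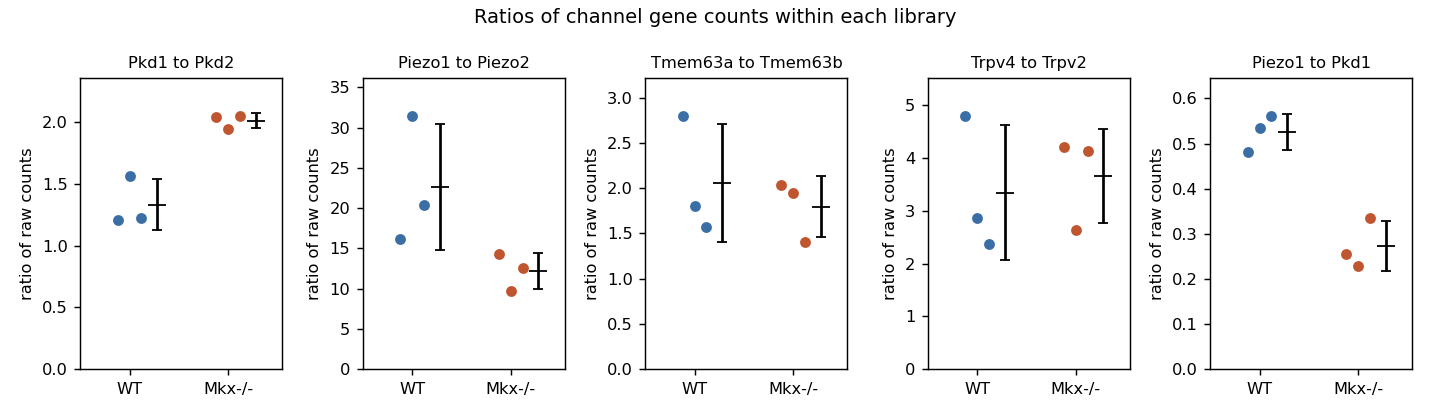
Ratio of raw counts of paired channel genes in each library, 1 panel a pair, with WT on the left and Mkx-/- on the right. Points are libraries, and bars give the mean and SD of 3 libraries. Pkd1 to Pkd2 is 1.33 ± 0.204 in WT and 2.01 ± 0.0594 in Mkx-/- libraries, and Piezo1 to Pkd1 is 0.525 ± 0.0405 and 0.272 ± 0.0561.

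Levels of different genes were compared per kilobase of annotated exon, since longer transcripts give more counts. In WT tendons *Pkd2* was highest at 31.9 ± 2.60 CPM per kilobase and *Pkd1* next at 30.3 ± 1.96 (SD, n = 3 each). Their ranges overlapped on this length. Per kilobase of the longest transcript they lay apart in every library, at 62.2 for *Pkd2* and 30.3 for *Pkd1*, since the longest *Pkd2* transcript has 5219 of the gene's 10169 exonic bases. *Piezo1* followed at 22.7 ± 2.54 and *Tmem63a* at 16.6 ± 3.06 CPM per kilobase, and WT replicate 1 of the latter was just above the lowest *Piezo1* library. *Tmem63b* stood apart from its neighbours at 7.33 ± 0.877 CPM per kilobase. *Trpv4*, at 2.19 ± 0.480, and *Trpc1*, at 1.92 ± 0.282, overlapped each other, as did *Piezo2*, at 0.806 ± 0.179, and *Trpv2*, at 0.616 ± 0.0929 CPM per kilobase. The highest mean in WT was 51.8 times the lowest, or 82.7 times by the longest transcript, and *Piezo1* was 28.2 times *Piezo2*.

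In *Mkx*-/- tendons *Pkd1*, at 39.4 ± 4.17 CPM per kilobase of exon, lay above *Pkd2*, at 27.3 ± 2.71, in all libraries. This order turned round with the longest transcript, by which *Pkd2* was at 53.2 and *Pkd1* at 39.4 CPM per kilobase, again apart in all libraries. *Tmem63a*, at 20.0 ± 1.89, lay above *Piezo1*, at 15.2 ± 2.64 CPM per kilobase, in all libraries and with either length. *Piezo1* was 15.9 times *Piezo2*. *Trpc1*, at 1.98 ± 0.303, and *Trpv4*, at 1.90 ± 0.321, overlapped, and *Piezo2* at 0.956 ± 0.0974 and *Trpv2* at 0.482 ± 0.0886 CPM per kilobase closed the order. Of the 9 genes, 3 held the same rank in both genotypes, and 7 did by the longest transcript. Going from all exons to the longest transcript kept the rank of 9 genes in WT and of 5 in *Mkx*-/- tendons, where *Pkd1* and *Pkd2*, and *Trpc1* and *Trpv4*, changed places. The comparison of lengths in *Mkx*-/- tendons was chosen after the data were seen.

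**Figure D4:**
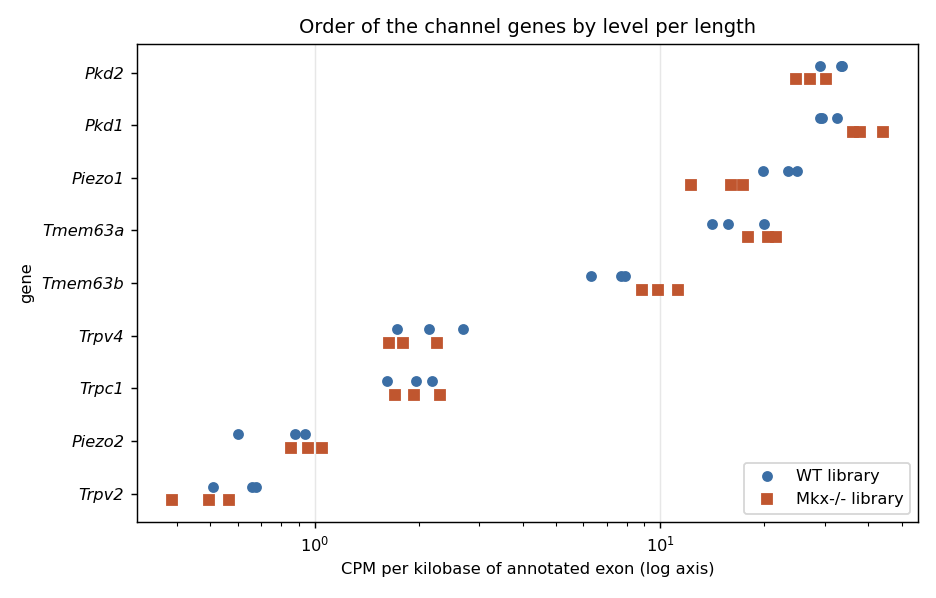
Level of each channel gene in CPM per kilobase of annotated exon on a logarithmic axis, ordered by the WT mean. Circles are WT and squares Mkx-/- libraries. The polycystins, Piezo1 and Tmem63a lie above 10 CPM per kilobase, and Piezo2 and Trpv2 near or below 1.

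Some of these genes share exonic bases with a gene on the opposite strand in the mm9 annotation. The pairs with counts are *Piezo1* (chr8:125005598-125075229) with *Ctu2*, *Pkd1* (chr17:24686895-24733459) with *Tsc2*, and *Tmem63b* (chr17:45797120-45823854) with *Mrpl14*. The treatment of strand in the counting is not given in the sources used here, so reads in the shared part could have gone to either gene. *Ctu2* averaged 3.49 ± 0.251 CPM for WT and 4.86 ± 0.714 CPM for *Mkx*-/- tendons, far below *Piezo1*. *Tsc2* had 62.6 ± 10.4 and 52.6 ± 2.45 CPM, and *Mrpl14* had 11.8 ± 1.97 and 14.2 ± 1.65 CPM (SD, n = 3 each). None of these 3 genes passed the test (adjusted p = 0.228, 0.350 and 0.385 by edgeR). *Tmem63a* shares exonic bases with a non-coding RNA, *2210411M09Rik*.

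Genes that act with or beside the channels were taken from 6 lists, of which 83 genes could be tested. Of these, 2 passed the adjusted threshold as higher and 3 as lower in edgeR, where 3.18% and 2.26% of all tested genes did. The 5 genes are 6.02% of the 83. In DESeq2 5 passed as higher and 8 as lower, or 15.7% of the 83, against 8.18% of all genes that tool tested. These shares rest on unlike sets, since the 83 passed edgeR's filter and DESeq2 tested a wider set of 16156 genes. Of 13 tested partners and regulators of the channels, 1 passed as higher and 0 as lower in edgeR, and 1 in each direction in DESeq2. At an unadjusted p under 0.05 in edgeR 4 were higher and 1 lower, where 22.6% of all tested genes reached this in either direction. The lower gene in DESeq2 was *Stom*, for the membrane protein stomatin, at 39.1 ± 11.7 CPM for WT and 23.9 ± 4.34 CPM for *Mkx*-/- tendons (SD over 3 libraries; adjusted p = 0.107 by edgeR and 0.0481 by DESeq2). The gene that passed in edgeR was *Bicc1*, an RNA-binding protein whose loss gives kidney cysts, at 131 ± 10.8 CPM for WT and 196 ± 16.4 CPM for *Mkx*-/- tendons (SD over 3 libraries; log2 fold change 0.58, adjusted p = 0.0391 by edgeR). It passed in none of the 6 leave-one-out fits, with adjusted p between 0.0564 and 0.130. The most abundant gene of the list, *Cav1* for caveolin of membrane pits, had a log2 fold change of 0.42 (adjusted p = 0.188 by edgeR).

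Of 20 tested genes for other channels gated by force or swelling, or proposed to be, 1 passed as higher and 1 as lower in edgeR, and 1 and 2 in DESeq2. *Kcnma1*, the large-conductance calcium-activated potassium channel, measured 93.7, 97.8 and 99.9 CPM across WT libraries, against 46.2, 43.1 and 33.9 CPM across *Mkx*-/- libraries. The groups lay far apart, and the log2 fold change was -1.24 (standard error 0.14; adjusted p = 0.00291 by edgeR). It passed in all 15 alternatives, with adjusted p of at most 0.0211. *Lrrc8d*, a subunit of the volume-regulated anion channel, measured 11.7, 8.64 and 10.2 CPM across WT libraries, against 17.0, 20.9 and 21.7 CPM across *Mkx*-/- libraries, and its log2 fold change was 0.96 (adjusted p = 0.0168 by edgeR). It did not pass in 4 of the 6 leave-one-out fits, with 0.0681 as the highest adjusted p, without WT replicate 3. *Gja1*, for connexin 43, was the most abundant of the list and had a log2 fold change of -0.087 (adjusted p = 0.818 by edgeR), which turned positive with library size alone and without *Mkx*-/- replicate 2.

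Of the 22 other TRP channel genes, 7 were tested and none passed in edgeR. The only member with an unadjusted p under 0.05 was *Trpm3*, with a log2 fold change of -1.42 (adjusted p = 0.0890 by edgeR and 0.0274 by DESeq2). Its levels were low, at 8.11, 3.04 and 4.57 CPM across WT libraries, against 1.19, 1.97 and 2.70 CPM across *Mkx*-/- libraries. WT replicate 1 stood highest, and the nearest libraries of the genotypes were close. *Trpm7*, a channel fused to a kinase, was the most abundant at 39.1 to 52.9 CPM over the 6 libraries. The other 15 genes had at most 11 counts in any library, and 5 of them, *Trpa1*, *Trpc5*, *Trpc7*, *Trpm8* and *Trpv5*, had 0 in all 6.

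Of 18 tested genes for calcium stores, pumps and entry, 0 passed as higher and 2 as lower in edgeR, and 1 and 2 in DESeq2. At an unadjusted p under 0.05 in edgeR 6 were higher and 3 lower, against 22.6% of all tested genes in either direction. The higher gene in DESeq2 was *Atp2b4*, for a calcium pump of the plasma membrane, at 42.2 ± 3.74 CPM for WT and 66.4 ± 12.6 CPM for *Mkx*-/- tendons, with no overlap (SD over 3 libraries; adjusted p = 0.0515 by edgeR and 0.00982 by DESeq2). *Itpr1*, an inositol trisphosphate receptor that releases calcium from the endoplasmic reticulum, measured 95.2, 69.7 and 63.8 CPM across WT libraries, against 42.2, 46.2 and 35.8 CPM across *Mkx*-/- libraries, and its log2 fold change was -0.88 (adjusted p = 0.0299 by edgeR). Its relative *Itpr2* measured 29.3, 30.7 and 25.7 CPM across WT libraries, against 19.0, 18.5 and 18.9 CPM across *Mkx*-/- libraries, and its log2 fold change was -0.60 (adjusted p = 0.0277 by edgeR). Each passed in 1 of the 6 leave-one-out fits, the one without WT replicate 1, and neither passed with library size alone (0.0887 and 0.171). The remaining receptor gene, *Itpr3*, did not pass and had a log2 fold change of 0.53 (adjusted p = 0.181 by edgeR). *Tmbim6*, for a calcium leak protein of the endoplasmic reticulum, was the most abundant of the list and had a log2 fold change of 0.21 (adjusted p = 0.353 by edgeR). Of 24 tested genes of calcium signalling through calcineurin, CaM kinases and NFAT, none passed in edgeR, 2 were higher and 5 lower at an unadjusted p under 0.05, and DESeq2 passed 2 in each direction. The shares over all genes were again 22.6% at that unadjusted p in edgeR and 8.18% past the adjusted threshold in DESeq2.

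**Figure D5:**
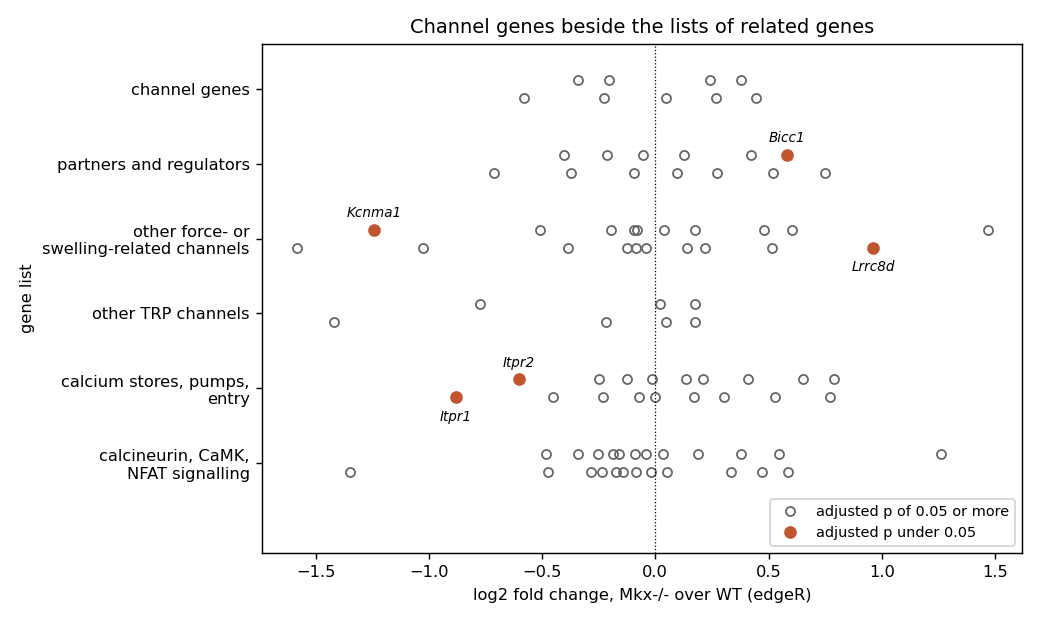
Log2 fold change in edgeR, Mkx-/- over WT, of the 9 channel genes and of the tested genes in 5 lists of related genes, 1 row a list. Filled points passed an adjusted p of 0.05 and are named, and open points did not. No channel gene is filled, and the related genes that are filled are Bicc1 and Lrrc8d on the right and Kcnma1, Itpr1 and Itpr2 on the left. Pkd1l2, the only polycystin relative tested, is not drawn.

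Markers of other cell types also differed between the genotypes, and the summed levels of all 6 lists did not overlap. Of all tested genes taken singly, 28.2% did not overlap. In edgeR 3.18% of them passed the adjusted threshold as higher and 2.26% as lower, and 22.6% had an unadjusted p under 0.05. In DESeq2 8.18% of the genes it tested passed. Of 14 macrophage and leukocyte markers, 14 were lower in *Mkx*-/- tendons. Their summed level was 767 to 796 CPM in WT and 476 to 547 CPM in *Mkx*-/- libraries. In edgeR 3 passed the adjusted threshold and 12 had an unadjusted p under 0.05, and 6 passed in DESeq2. Of 15 endothelial markers 13 were higher, with sums of 111 to 137 and 190 to 267 CPM. In edgeR 2 passed and 10 had an unadjusted p under 0.05, and 5 passed in DESeq2. Of 14 Schwann cell and nerve markers 14 were higher, with sums of 8375 to 11057 and 12983 to 24037 CPM, and 0 passed in edgeR, although 11 had an unadjusted p under 0.05 and 10 passed in DESeq2. Of 25 skeletal muscle markers 24 were higher, with sums of 167 to 548 and 870 to 3714 CPM. In edgeR 7 passed as higher and 24 had an unadjusted p under 0.05, and 10 passed in DESeq2. Of 10 cartilage markers 8 were higher, with sums of 2160 to 2371 and 2921 to 4066 CPM. An unadjusted p under 0.05 was found in edgeR for 6, all higher, and 3 passed in DESeq2. The 2 that passed as higher were *Acan* and *Matn3*, with log2 fold changes of 2.20 and 1.45. The 2 lower markers were *Col2a1* and *Hapln1*, at -0.084 and -0.22 (adjusted p = 0.905 and 0.737 by edgeR). *Col10a1* was among the 8 higher but changed little, at 0.15 (adjusted p = 0.895 by edgeR). The rise was thus not shared by all cartilage markers. Over the 6 libraries the sum was led by *Comp*, with a WT mean of 727 CPM and a knockout mean of 1335 CPM. The WT mean of *Col2a1* was a little above that of *Comp*, at 748 CPM, and its knockout mean was 705 CPM. *Matn1*, another cartilage marker, had 0 counts in all 6 libraries. All 4 tested epidermis markers were higher, with sums of 2.76 to 10.4 and 15.7 to 20.3 CPM, and 0 passed in edgeR, although 3 had an unadjusted p under 0.05 and 1 passed in DESeq2. Of the markers in this epidermis and Merkel cell list that were too low to test, *Atoh1* had 1 count in 1 library. *Krt20* had 1 to 5 counts per library, and *Krt8* had 1 to 53, the most in *Mkx*-/- replicate 2. Of 12 tendon markers 4 were higher and 8 lower. In edgeR 1 passed as higher and 1 as lower, the latter being *Mkx*, the gene knocked out. At an unadjusted p under 0.05 in edgeR 3 were higher and 4 lower, and DESeq2 passed 2 as higher and 4 as lower. Their sums, led by *Col1a2*, were 382123 to 524929 CPM in WT and 245319 to 340071 CPM in *Mkx*-/- libraries. The 9 channel genes together summed to 1103 to 1139 CPM in WT and 1106 to 1255 CPM in *Mkx*-/- libraries. The part of these cells in the levels of the channel genes was not tested.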

How the data were processed

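Raw counts per gene symbol were deposited by the authors, who had trimmed adaptors, filtered reads on quality and mapped them to the mm9 mouse genome with MapSplice. The counting program, its annotation and its treatment of strand are not given in the sources used here. All 6 columns were used and 0 left out. The paper's text gives the mice a different age from the labels.

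Counts were fitted over the whole table with edgeR 4.0.16 in R 4.3.3 (TMM, filterByExpr, quasi-likelihood test on genotype, Benjamini-Hochberg adjustment, prior count 0.125). The standard error is the log2 fold change over the square root of the test's F, and 95% intervals use its degrees of freedom. DESeq2, the tool that the authors' methods name for finding changed genes, was run in version 1.42.0 as an alternative. Both were tested on simulated data. The authors' methods also ask for a log2 fold change beyond 1, which no member reached. P-values measure the spread between libraries, which may be technical. Chi-square per degree of freedom between replicates was 7.98 to 39.8, more than counting noise, so none was counted as a repeat deposit. The lowest value was that of WT replicates 2 and 3, while WT replicate 1 stood at 37.4 and 39.8 from them. Pairs of *Mkx*-/- libraries had 22.9 to 26.7. Exon lengths and mm9 coordinates come from GENCODE, where *Piezo1* and *Piezo2* carry older names.

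The members and all lists were chosen with earlier results of these data known. The text names all members, *Mkx*, *Ddx3y*, in each pathway list at most 4 genes per direction of smallest p among those passing and the most abundant gene, and up to 3 markers per cell type, except that some genes under this rule are not reported here. *Atp2b4*, *Itpr3*, *Stom*, *Tmem63c*, *Trpm3*, *Acan*, *Comp*, *Matn3*, *Col2a1*, *Hapln1*, *Col10a1*, *Krt8*, *Krt20*, TRP genes at 0 and genes overlapping members were named after their values were seen. Alternatives were DESeq2, RLE, upper-quartile and library-size scaling, filters of 1 count in any and 10 counts in every library, a robust fit, removal of muscle markers, the replicate number as a block, each library left out, and, for ranks, the longest transcript.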

Additional observations from a re-analysis of the deposited data

How the results depend on the processing

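Of the 9 channel genes, 0 passed an adjusted p of 0.05 under TMM scaling in edgeR. *Piezo1* passed in 3 of 15 alternatives, with log2 fold changes of -0.59 in DESeq2, -0.57 with the filter of 1 count in any library and -0.67 without WT replicate 1. *Pkd1* and *Tmem63b* passed with library size only, at 0.63 and 0.71. That scaling reversed *Trpv4* to 0.038, *Pkd2* to 0.017, *Gja1* to 0.17 and *Trpm7* to 0.026, with the median of all genes raised by 0.25 by construction. *Trpc1* reversed to -0.078 when WT replicate 3 was left out and to -0.093 when *Mkx*-/- replicate 1 was, and *Gja1* to 0.027 without *Mkx*-/- replicate 2. The cause of the other moves was not tested. Leaving out each library gave log2 fold changes of -0.68 to -0.44 for *Piezo1*, 0.27 to 0.44 for *Pkd1*, 0.35 to 0.50 for *Tmem63b*, -0.093 to 0.14 for *Trpc1* and -0.22 to 0.027 for *Gja1*.

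The genes past the threshold in the whole table, 463 higher and 329 lower, became 763 and 559 in DESeq2, 1358 and 197 with library size only, and 970 and 594 with the filter of 1 count. Leaving out each library gave 117 to 539 higher and 127 to 439 lower. The higher count fell by over 1.5 times without WT replicate 2 (137), WT replicate 3 (117), *Mkx*-/- replicate 2 (183) or *Mkx*-/- replicate 3 (213), and the lower count without these (131, 127, 144 and 137) and without *Mkx*-/- replicate 1 (209). With a fold change above 2 or below its inverse asked for too, 275 and 193 genes became 541 and 322 with the filter of 1 count, 711 rose with library size only, and leaving out a library gave 103 to 321 and 112 to 248.

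Same-numbered libraries of the genotypes had correlations of deviations of 0.026, -0.21 and 0.30, and unlike numbers gave -0.39 to 0.40. Deviations within 3 replicates are tied to each other, so these values cannot decide whether the numbers pair the libraries. With the replicate number as a block, 264 genes were higher and 170 lower, no channel gene passed, and *Piezo1* had a log2 fold change of -0.59. *Bicc1*, *Lrrc8d* and *Itpr2* did not pass with it (adjusted p = 0.103, 0.0532 and 0.0717). Counts were fewest for *Trpv2*, with 19 to 37 counts per library.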
